A study of Mus musculus and Homo sapiens with 90 samples.

Results

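A set of 17 candidate regulatory regions was placed in nearly every sub-library of a massively parallel reporter assay (MPRA). They are the regions whose names begin with EH38D and occur in at least 4 of the 5 sub-libraries, counting a sub-library when any of its tables lists the name. The rule picked 17 of 105232 distinct names, which comprised 103184 test regions and 2048 negative controls. The rule used names and no RNA/DNA ratio, but the smallest RNA count in every table was 10, so a name is listed only where its reporter RNA was counted. Of the 17, 16 occurred in all 5 sub-libraries and EH38D3775233 in 4, being absent from sub-library 3. No EH38D name occurred in 3 sub-libraries, 51 occurred in 2 and 103074 in 1.

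In an MPRA, each candidate sequence is cloned into a reporter construct and the plasmid pool is delivered to cells or tissue. A sequence that acts as an enhancer or promoter there gives more reporter RNA than its share of the plasmid DNA, and one that represses gives less. Names of the form EH38D are accessions of the ENCODE registry for representative DNase hypersensitive sites of the human genome, stretches of open chromatin at which transcription factors tend to bind. A region placed in several sub-libraries is measured among a different set of neighbours each time.

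The regions were measured in 4 settings. HepG2, a human liver cancer line labelled p53-WT, had 14 RNA and 5 DNA libraries, with only 1 DNA library in each sub-library. Livers of C57BL/6 mice with no treatment entry, called conventional here, had 15 RNA and 15 DNA libraries, and livers of C57BL/6 mice labelled Germ-free, raised without microbes, had 15 and 15. The libraries titled Hep3B, another liver cancer line, are labelled p53-null and cover sub-library 2 alone with 2 RNA libraries and 1 DNA library (2 other fields of their labels name HepG2 instead). The labels state no age of the mice and do not say that replicates came from different cultures or animals. The p-values thus cover only the spread between these samples. The batch entry equals the sub-library. Names of the conventional liver libraries begin with AML and those of the germ-free livers with GIS (the germ-free DNA libraries of sub-library 5 are the exception), so a difference between these naming series and the treatment cannot be told apart. Total counts ran from 1172822 to 25625463 in RNA libraries and from 1700473 to 9897059 in DNA libraries.

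The tables give regions by name, and their positions, gene annotation and sequences are not used here. By accession number, 15 of the 17 lie within 4 of another member. One run is EH38D5698023 to EH38D5698028, which are 6 consecutive numbers. The other runs are EH38D2419693 with EH38D2419694, EH38D3158849 with EH38D3158851 and EH38D3158852, EH38D3775229 with EH38D3775233, and EH38D4580800 with EH38D4580801. EH38D2440001 and EH38D4595047 stand alone. That a name carries the same bases in every sub-library is assumed and is not shown by the tables.

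The tables listed 225 of 272 possible member measurements. HepG2 listed 76 of 85, conventional liver 60 of 85, germ-free liver 72 of 85 and Hep3B all 17. With that minimum, the level of an unlisted member is unknown. Conventional liver sub-library 2 listed 4606 regions and only 2 members, EH38D5698024 and EH38D5698027, against 15499 to 18473 regions in the other conventional liver tables. Every listed member passed the minimum mean DNA count of 10 set for testing. Plasmid abundance followed the region: of the 22 DNA libraries listing 15 or more members, EH38D5698027 was the most abundant in 21 and EH38D5698026 the least abundant in 17.

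Activity is given as a log2 ratio, the log2 share of each RNA library's counts (TMM scaling, prior count 2) minus the mean of the same over the DNA libraries of its sub-library. A member was called active or low where edgeR's quasi-likelihood test of RNA against DNA gave an adjusted p under 0.05. HepG2 had 17 active and 9 low among 76 member measurements, where 29.9% of all region measurements were called, 17.3% active and 12.6% low. Conventional liver had 12 active and 8 low of 60, where 46.7% of all were called, 25% active and 21.6% low. Germ-free liver had 23 active and 10 low of 72, against 54% of all, 28.4% active and 25.7% low. Hep3B had 3 active and 2 low of 17, against 35.5% of all, 22.7% active and 12.8% low.

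These splits moved with the scaling. With TMM factors from the negative controls alone, the HepG2 measurements split into 22 active and 6 low, those of conventional liver into 14 and 7, and those of germ-free liver into 30 and 3. With plain library sizes the splits were 15 and 12, 5 and 29, and 18 and 17, in the same order. With the controls' factors all region measurements split into 21094 and 8872 of 99921, 21657 and 10408 of 72336, and 37829 and 11961 of 86704. With library sizes they split into 13019 and 20323, 9528 and 39238, and 17851 and 28990. The median log2 ratio of all regions was -0.02 for HepG2, -0.07 for conventional and 0.03 for germ-free liver. It became 0.22, 0.20 and 0.65 with the controls' factors, and -0.33, -1.01 and -0.31 with library sizes. Without germ-free liver replicate 3 the germ-free calls fell to 11 active and 8 low. Those of all germ-free region measurements fell too, from 46849 to 30134 of 86704. Set among the negative controls of their own table, 16 of 76 HepG2 measurements lay above the 97.5th percentile and 2 below the 2.5th. Above it lay 7 of 60 measurements of conventional liver, 9 of 72 of germ-free liver and 2 of 17 of Hep3B, with 0 below the lower limit in these 3 settings.

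To use the repeats, each member was given 1 value per sub-library, centred on the median of the negative controls listed in every table used. The test by limma asked whether its mean over sub-libraries differed from 0, among all regions with values in at least 4. Its empirical Bayes step draws each region's variance towards that of all regions tested. A limma p-value thus does not rest on the printed SD alone. Above or below the controls here means a mean above or below their median, not one outside their spread. When a sub-library was left out, the centring controls were chosen anew from the remaining tables. The zero of the centred values thus moved as well. In HepG2 the regions tested were 1760, of which 1714 were negative controls and 15 were members. There, 4 members were above the controls and 3 below, or 7 of 15, where 45.1% of all regions were called, 18.4% above and 26.6% below. The split was 4 and 5 without centring on controls, and 5 and 2 when centred on all negative controls of each table. All 1760 regions then split into 229 and 611, and into 420 and 349.

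EH38D3158852 was the most active member in HepG2. Its 14 RNA libraries ran from 2.50 to 3.64 with a median log2 ratio of 3.09, all above 0. Its RNA counts of sub-library 1 were 483 and 337 over a DNA count of 200, and those of sub-library 3 were 336, 340 and 372 over 113. The sub-library means of 3.24, 2.94, 2.58, 2.99 and 3.33 lay close together, and each was called active, with edgeR adjusted p from 7.23e-11 to 8.51e-07. Centred, it averaged 3.16 ± 0.36 (SD, n = 5 sub-libraries), an 8.97-fold excess over the controls (limma adjusted p = 9.6e-08). It ranked 1 of the 1760 regions.

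EH38D4580800 ranked 5 of 1760. Its 14 HepG2 libraries ran from 1.35 to 2.68 with a median of 2.06, all above 0, and it was called active in 5 of 5 sub-libraries. Centred, it averaged 2.18 ± 0.38 (SD, n = 5), a 4.52-fold excess (limma adjusted p = 1.57e-06). EH38D4580801, the next accession number, averaged 0.31 ± 0.19 (n = 4) and was not called (limma adjusted p = 0.161), nor was it called in any single HepG2 table. The neighbouring numbers thus differed widely in level.

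EH38D2440001 and EH38D5698026 were the other members above the controls. EH38D2440001 was above 0 in 14 of 14 libraries, from 0.71 to 1.97 with a median of 1.25. Its centred values of 1.82, 1.31, 1.18, 1.46 and 1.23 averaged 1.40 ± 0.26 (SD, n = 5, limma adjusted p = 1.5e-05). EH38D5698026 had DNA counts of only 23 to 104, and 10 of its 11 libraries were above 0, from -0.30 to 1.84. No single table called it (edgeR adjusted p from 0.0871 to 0.277), but its centred values of 2.06, 0.84, 1.01 and 1.31 averaged 1.30 ± 0.54 and passed over sub-libraries (limma adjusted p = 0.000407).

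At the low end, EH38D2419694 was below 0 in 14 of 14 HepG2 libraries, from -2.77 to -0.93 with a median of -1.63. It was called low in 4 of 5 sub-libraries and averaged -1.59 ± 0.58 after centring (SD, n = 5, limma adjusted p = 4.52e-05), ranking 1724 of 1760. EH38D2419693, the number before it, averaged -0.37 ± 0.28 and was not called (limma adjusted p = 0.0669), although without centring on controls it was, at -0.52 (adjusted p = 0.0239). EH38D5698027, the member with most plasmid, was also below 0 in 14 of 14, from -1.97 to -0.31, and averaged -0.74 ± 0.38 (n = 5, limma adjusted p = 0.00324).

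EH38D4595047 was below 0 in 11 of 11 HepG2 libraries and averaged -0.59 ± 0.30 (n = 4, limma adjusted p = 0.0178). Among all negative controls of each table it stood inside their range, at percentiles from 11.2 to 35.9. Its call did not survive without sub-library 1 (-0.40, adjusted p = 0.113), nor when centred on all negative controls of each table (-0.46). The calls of EH38D2419694 and EH38D5698027 held with each sub-library left out, with adjusted p of at most 0.000409 and 0.0186. Among those controls EH38D2419694 lay below the 2.5th percentile in 2 of 5 sub-libraries and EH38D5698027 in 0 of 5.

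The other HepG2 means over sub-libraries were not called. EH38D3158851 averaged -0.31 ± 0.21, below the controls in 5 of 5 sub-libraries but not called (limma adjusted p = 0.112). EH38D5698024, EH38D5698025 and EH38D3775233 averaged 0.23, -0.13 and -0.19, with limma adjusted p of 0.306, 0.643 and 0.525. EH38D5698023 and EH38D5698028 were listed in 3 and 2 HepG2 tables, too few for the test over sub-libraries. EH38D5698023 was below 0 in all 8 libraries, from -1.80 to -0.77, and was called low in sub-libraries 1 and 2. It stood at the 4.54th to 12.6th percentile of the negative controls of its tables.

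EH38D3158849 was the member whose HepG2 level changed with the sub-library. Sub-library 1 gave 1.13 and 1.27, sub-library 2 gave 1.07, 1.17 and 1.14, sub-library 3 gave 0.51, 0.69 and 0.75, and sub-library 4 gave 1.39, 1.33 and 1.24. Those of sub-library 5 read -2.20, -0.32 and -1.28, from RNA counts of 24, 126 and 83 over a DNA count of 549. All 3 lay below every library of the other sub-libraries, whose DNA counts for it were 141 to 451.

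A joint edgeR test asked whether the RNA/DNA ratio differed between sub-libraries, over the 1361 regions listed in all 5 HepG2 tables. It called EH38D3158849 (adjusted p = 0.00401) and none of the other 10 members it covered, where 0.808% of all regions were called. Without sub-library 5 the adjusted p was 0.999, and without HepG2 replicate 3 it was 0.252. The mean of EH38D3158849 over the 5 sub-libraries was 0.76 ± 1.15 (SD, limma adjusted p = 0.0659), and without sub-library 5 it was 1.29 and called (adjusted p = 0.000252). Centred on all negative controls of each table it was 0.88 and called.

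EH38D3158849 was low in the same sub-library of conventional liver. Sub-library 1 gave 1.97, 1.89, 1.35 and 1.73, sub-library 3 gave 0.96 and 0.91, and sub-library 4 gave 1.36, 1.68, 1.75 and 1.64, but sub-library 5 gave -1.99, -1.61 and -2.49. It was called active in the first 3 of these and low in the last. Among the negative controls of each table they stood at the 99th, 86.6th, 98.5th and 3.22nd percentile. In HepG2 sub-library 5 it stood at the 7.34th, so neither low value was below the 2.5th. The fitted log2 ratios were 1.76 ± 0.16 (SE), 0.94 ± 0.25, 1.62 ± 0.15 and -2.02 ± 0.32, with edgeR adjusted p of 5.99e-07, 0.0328, 8.5e-07 and 0.000782. Its DNA counts in sub-library 5 were 370, 321 and 352, against 233 to 349 in the others.

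Sub-library 2 of conventional liver did not list EH38D3158849, so the joint test there covered it only with that table left out, where it was called (adjusted p = 4.43e-10). Its conventional liver mean was 0.58 ± 1.59 (SD, n = 4, limma adjusted p = 0.332), or 1.37 without sub-library 5 (adjusted p = 0.00081). Germ-free liver did not list it in sub-library 5. EH38D3775229 had the second largest spread in HepG2, 0.40 ± 0.79 (n = 5). It too was lowest in sub-library 5, at -0.84 after centring against 0.05 to 1.00 elsewhere, and the joint test did not call it (edgeR adjusted p = 0.415). Without sub-library 5 its HepG2 mean was 0.75 and called (limma adjusted p = 0.00961).

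In conventional liver, 8 members had values in at least 4 sub-libraries. Of these 1 was above the controls and 1 below, where 26.2% of 818 regions were called, 9.05% above and 17.1% below. EH38D3158852 was highest again. Its 13 libraries ran from 0.64 to 4.21 with a median of 3.14, all above 0, and the means of sub-libraries 1, 3, 4 and 5 were 3.54, 1.19, 3.82 and 2.14. Centred, it averaged 2.69 ± 1.13 (SD, n = 4, limma adjusted p = 0.000127) and ranked 2 of 818. The 4 sub-libraries that listed it differed by the joint test (adjusted p = 0.000346).

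EH38D5698027 was the member below the controls. All 15 conventional liver libraries were below 0, from -3.02 to -0.51 with a median of -1.49. Its sub-library means were -1.55, -1.48, -2.02, -1.30 and -2.07, and 4 of 5 were called low. Centred, it averaged -1.47 ± 0.57 (SD, n = 5, limma adjusted p = 0.000498), ranking 791 of 818. Its mean was thus below the controls' median here as it was in the cell line. Among all negative controls of each table it stood inside their range. Its percentiles ran from 2.89 to 31.6 here and from 6.3 to 40.9 in HepG2.

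The other 6 conventional liver means were not called. EH38D4580800 averaged 0.55 ± 1.73 (n = 4, limma adjusted p = 0.393). Its means in sub-libraries 1, 4 and 5 were 1.81, 0.79 and 1.41, each called active, while its 2 libraries in sub-library 3 read -3.39 and -0.42. Without sub-library 3 it averaged 1.36 and was called (adjusted p = 0.00752). EH38D2419694 averaged -0.60 ± 0.43 (limma adjusted p = 0.0893), EH38D4595047 -0.33 ± 0.66, EH38D5698024 0.22 ± 0.43 and EH38D5698025 0.03 ± 0.36.

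Single conventional liver tables held further calls. EH38D3158851 was below 0 in all 11 libraries and was called low in sub-libraries 1 and 4. EH38D5698023 was called active in sub-library 4, at 1.28 ± 0.26 (SD, n = 4 libraries), as was EH38D5698024, at 0.98 ± 0.355 (n = 4). EH38D3775233 was called active in sub-library 1, at 0.79 ± 0.43 (n = 4). EH38D5698028 was called low in sub-library 4, at -1.23 ± 0.33 (n = 4).

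In germ-free liver another pair of members led. Of 14 tested over sub-libraries, 2 were above the controls and 3 below, where 44.2% of 808 regions were called, 9.41% above and 34.8% below. EH38D5698023 was above 0 in all 15 libraries, from 0.87 to 4.06 with a median of 2.59. Its sub-library means of 1.76, 2.54, 1.50, 2.67 and 3.67 were each called active. In sub-library 5 its RNA counts were 1355, 930 and 3395, and its DNA counts 49, 106 and 110. Centred, it averaged 2.36 ± 0.86 (SD, n = 5), a 5.15-fold excess that ranked 4 of 808 (limma adjusted p = 0.00045). It lay above the 97.5th percentile of the controls in 5 of 5 sub-libraries.

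EH38D5698024, the next number, was likewise above 0 in all 15 germ-free libraries, from 0.44 to 3.52 with a median of 2.39. Its sub-library means of 0.99, 2.94, 1.41, 2.56 and 3.03 were each called active. Centred, it averaged 2.12 ± 0.85 (SD, n = 5), a 4.35-fold excess that ranked 7 of 808 (limma adjusted p = 0.000601). Both regions thus kept their direction in every germ-free library.

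The joint test called 4 of the 7 members it covered in germ-free liver, where 50.3% of 364 regions were called. EH38D5698024 had an adjusted p of 0.00029, and it was called with each sub-library and each replicate left out (adjusted p of at most 0.0476). EH38D5698023 had 0.0103, but 0.439 without sub-library 5 and 0.22 without germ-free liver replicate 3. EH38D5698027 had 0.0147, but 0.56 without sub-library 2, 0.221 without replicate 2 and 0.176 without replicate 3. EH38D3158852 had 0.0314, but 0.0569 without sub-library 1, 0.619 without sub-library 5, 0.11 without replicate 2 and 0.444 without replicate 3. With plain library sizes EH38D5698023 and EH38D3158852 were not called (0.0607 and 0.094). Without replicate 2 the test called 2 of 7 members and 118 of all 364 regions, without replicate 3 it called 1 of 7 and 57 of 364, and without sub-library 5 it called 2 of 8 and 52 of 385. Replicate numbers are those of the sample titles. For a pair of germ-free RNA libraries of sub-library 3 the table header gives replicates 1 and 2 the other way round, and leaving out the header's numbers was not run. In conventional liver the joint test called 0 of the 2 members it covered, 0 also at an unadjusted p under 0.05, where 29.3% of 150 regions were called by edgeR. Without sub-library 2 it called 3 of 8 there, and 95 of all 777 regions.

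EH38D3158852, which had the highest member mean in each of the other 3 settings, was not called over sub-libraries in germ-free liver. Its 15 libraries ran from -2.65 to 2.61 with a median of 0.43, and 10 were above 0. Those of sub-library 1 read -2.27, 0.38 and -0.09 on RNA counts of 13, 319 and 183. Those of sub-library 3 read -2.65, 0.94 and 1.06 on 12, 167 and 151. Replicates of the same sub-library thus lay far apart. Sub-libraries 2 and 5 called it active, at 0.77 ± 0.34 and 1.97 ± 0.94 (SD, n = 3 libraries each). In sub-library 2 the control median was 0.66, and EH38D3158852 stood at 0.11 after centring, at the 85.1st percentile of the controls. Its centred mean was 0.27 ± 1.05 (SD, n = 5, limma adjusted p = 0.555), and -0.12 without sub-library 5.

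The germ-free means below the 347 controls used for centring were those of EH38D2419694, EH38D2419693 and EH38D2440001. Among all negative controls of each table they stood inside the controls' range. Their percentiles ran from 10.6 to 66.3, from 20.2 to 62.4 and from 38.9 to 62.4, in that order. EH38D2419694 averaged -1.55 ± 1.14 (SD, n = 4, limma adjusted p = 0.0103), with its 3 libraries of sub-library 5 at -2.92, -3.00 and -3.32. EH38D2419693 averaged -1.28 ± 0.89 (n = 4, limma adjusted p = 0.0156). EH38D2440001, active in HepG2, averaged -0.96 ± 0.79 (n = 4, limma adjusted p = 0.0454).

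These calls depended on single sub-libraries and on the centring. EH38D2419694 was not called without sub-library 4 (adjusted p = 0.0792) and stood at -0.99 without sub-library 5. EH38D2419693 was not called without sub-library 3 or 4 (adjusted p = 0.0509 and 0.0505). EH38D2419693 and EH38D2440001 have no germ-free value in sub-library 4, so leaving it out changed only the zero and the values of other regions. EH38D2440001 lost its call whichever sub-library was left out (adjusted p from 0.0672 to 0.158), and also without centring on controls (-0.86). Centred on all negative controls of each table, 7 of the 14 germ-free means were above the controls and 0 below, where 250 of all 808 were above and 62 below. That choice moved the median of all 808 regions from -0.46 to 0.43.

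Other germ-free members changed call with the sub-library, or with the zero, which moved when a sub-library was left out. EH38D4595047 was above the controls in 5 of 5 and averaged 0.70 ± 0.55 (SD, limma adjusted p = 0.0605), and it was called when sub-library 3, 4 or 5 was left out (adjusted p of 0.0186, 0.0418 and 0.024). EH38D5698025 averaged 0.42 ± 0.41 (limma adjusted p = 0.218), was called active in sub-libraries 1, 2 and 5, and had a mean of 0.97 that was called without sub-library 3 (limma adjusted p = 0.0293). Before the zero moved, its centred values in sub-libraries 1, 2, 4 and 5 were 0.94, 0.21, 0.22 and 0.76. The median of all 808 regions went from -0.46 to -0.06 without sub-library 3, to -0.24 without 4 and to -0.38 without 5. EH38D3775233 was called active in sub-libraries 1 and 2, at 0.93 ± 0.23 and 1.08 ± 0.42 (SD, n = 3 libraries each), and not in 4 or 5. In sub-library 2 the centred values of EH38D5698025 and EH38D3775233 were 0.21 and 0.42, at the 87.2nd and 91.3rd percentile of the controls.

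EH38D3158851 held the lowest sub-library mean of any member in any setting, -3.60 ± 0.60 (SD, n = 3 libraries) in germ-free sub-library 5, where sub-libraries 1 and 2 had -0.47 and -0.76. That mean stood at the 4.77th percentile of the 1259 negative controls of its table, which was not below their 2.5th. EH38D5698027 was called active in sub-library 2, with a mean of 1.22, and low in sub-libraries 3 and 4, with -1.09 and -0.63. Centred on the controls these were 0.56, -0.66 and -0.57, and among all negative controls of each table EH38D5698027 stood at the 92.9th, 32.3rd and 55.7th percentile. The calls in opposite directions are thus relative to the TMM zero, and none of the 3 values lay outside the 2.5th to 97.5th percentiles of the controls. EH38D3775229 varied least over sub-libraries, averaging -0.42 ± 0.19 (n = 5, limma adjusted p = 0.188). EH38D5698028 averaged -0.52 ± 0.39 (n = 4, limma adjusted p = 0.18). EH38D4580800, active in HepG2, averaged 0.30 ± 0.42 in germ-free liver (n = 4) and was not called (limma adjusted p = 0.448). It was called active in 2 of the 4 germ-free tables listing it, and 1 of 10 alternatives called its mean.

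Germ-free was compared with conventional liver within each sub-library, as the difference of their log2 RNA/DNA ratios. Of 49 member measurements 11 were higher in germ-free liver and 9 lower, where 39.3% of all 56240 were called, 18.6% higher and 20.7% lower. The libraries of both groups did not overlap in 24 of the 49. Overlap was not counted over all regions, so this number has no background to be read against. The median difference was 0.20 over the member measurements and 0.01 over all regions. With the controls' factors the members split into 16 higher and 7 lower, and with library sizes into 20 and 6, the median of all regions then being 0.59. All 56240 split into 14521 and 8651 with the controls' factors, and into 18591 and 7500 with library sizes.

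EH38D5698024 was higher in germ-free liver in 5 of 5 sub-libraries and passed the test in 4. In sub-library 2 its conventional libraries read -0.37 and -1.53 and its germ-free ones 3.06, 3.15 and 2.60. In sub-library 5 they read 0.10, 0.62 and -0.13 against 3.16, 2.39 and 3.52. The groups overlapped in sub-library 1 and in no other. The negative controls used for centring also differed in sub-library 2, their germ-free median being 0.70 and their conventional liver median -1.35. The fitted differences in sub-libraries 1 to 5 were 1.22 ± 0.48 (SE), 3.26 ± 0.49, 1.42 ± 0.49, 1.93 ± 0.32 and 3.01 ± 0.41, with edgeR adjusted p of 0.0535, 0.000502, 0.0382, 0.000194 and 6.92e-05. After centring they were 1.28, 1.84, 1.53, 1.96 and 2.97, so that of sub-library 2 was no longer the largest. Their mean was 1.92 ± 0.64 (SD, n = 5, limma adjusted p = 0.000638), ranking 17 of 322 regions, of which 33.2% were called, 13.7% higher and 19.6% lower. It stayed between 1.79 and 2.29, and called, with each sub-library left out.

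EH38D5698027 also read higher in germ-free liver in 5 of 5 sub-libraries and passed in 4. Its fitted differences were 1.49 ± 0.25 (SE), 2.18 ± 0.39, 0.91 ± 0.63, 0.96 ± 0.33 and 1.79 ± 0.42, with edgeR adjusted p of 0.000192, 0.00143, 0.283, 0.0294 and 0.00422. The germ-free means were -0.07, 1.22, -1.09, -0.63 and -0.27, so only in sub-library 2 was it above 0. With the same centring the differences of EH38D5698027 were 1.37, 0.66, 1.29, 1.05 and 1.93, and sub-library 2, largest before, was the smallest. Their mean was 1.26 ± 0.47 (SD, n = 5, limma adjusted p = 0.0132).

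EH38D5698023 could be compared in 3 sub-libraries, 1, 3 and 4. The differences were 1.38 ± 0.45 (SE), 1.48 ± 0.81 and 1.72 ± 0.27, called in sub-libraries 1 and 4 (edgeR adjusted p = 0.021, 0.169 and 0.000111). EH38D5698025 differed by 0.57 ± 0.27 over sub-libraries (SD, n = 4) and was not called (limma adjusted p = 0.313). EH38D5698026, compared in sub-library 1 alone, was lower in germ-free liver, with libraries of -1.62, -0.43 and -1.97 against 0.72, 1.60, 0.00 and 0.00. The fitted difference was -1.97 ± 0.57 (SE, edgeR adjusted p = 0.0112). EH38D5698028, compared in sub-library 3, differed by -0.58 ± 0.78 (edgeR adjusted p = 0.593).

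EH38D3158852 had the most negative differences among the members. In sub-library 1 its conventional libraries read 3.71, 3.94, 3.14 and 3.35 and its germ-free ones -2.27, 0.38 and -0.09. In sub-library 4 they read 4.21, 3.99, 4.05 and 3.04 against 0.42, -0.33 and -0.72. In sub-library 5 the groups overlapped, with 2.26, 1.65 and 2.52 against 2.61, 0.89 and 2.42. The fitted differences in sub-libraries 1, 3, 4 and 5 were -3.86 ± 0.50 (SE), -0.57 ± 1.09, -3.71 ± 0.41 and 0.08 ± 0.54, with edgeR adjusted p of 1.75e-05, 0.714, 4.55e-06 and 0.924. Over sub-libraries the centred difference was -2.26 ± 2.05 (SD, n = 4, limma adjusted p = 0.00358), a spread above that of 99.4% of regions. That p-value uses the variance drawn towards all regions, not this SD alone. Without sub-library 1 the difference was -1.47 and not called (adjusted p = 0.154).

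Further members passed in single sub-libraries. EH38D2419694 was lower in germ-free liver in sub-libraries 4 and 5, with differences of -0.86 ± 0.30 (SE) and -2.78 ± 0.45, and read 0.64 ± 0.56 in sub-library 1. EH38D3158851 was lower in sub-library 5, at -2.59 ± 0.46, and read 0.91 ± 0.37 in sub-library 1 (edgeR adjusted p = 0.000582 and 0.0622). Lower calls were also made for EH38D4580800 in sub-library 1 (-1.61 ± 0.43), EH38D3158849 in sub-library 4 (-1.82 ± 0.36) and EH38D2440001 in sub-library 5 (-1.74 ± 0.51). In sub-library 5 the germ-free values of EH38D2419694, EH38D3158851 and EH38D2440001 stood at the 10.6th, 4.77th and 38.9th percentile of the negative controls. Their conventional liver values stood at the 57.8th, 30.1st and 67th.

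EH38D4595047 was higher in germ-free liver in sub-library 1, at 2.07 ± 0.42 (SE, edgeR adjusted p = 0.000943). Its centred difference over sub-libraries was 1.19 ± 0.77 (SD, n = 4, limma adjusted p = 0.0421), and it was not called without sub-library 1, 2, 3 or 4 (adjusted p from 0.0596 to 0.142), nor without centring on controls (1.001). It has no difference in sub-library 2, so leaving that one out changed only the zero and the values of other regions. Of the 5 members compared over sub-libraries, 3 were higher and 1 lower, and 2 were called without sub-library 1, where 70 of all 322 regions were.

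Conventional liver was compared with HepG2 in the same way, mouse tissue against a human cell line. Of 57 member measurements 4 were higher in liver and 1 lower, where 19.1% of all 65891 were called, 12.5% higher and 6.6% lower. The libraries did not overlap in 21, again without a count over all regions. The count of calls was 3 without HepG2 replicate 1 and 8 without conventional liver replicate 1. Over all regions it was 11704 and 13504, against 12564 with every replicate. Library sizes gave 1 higher and 10 lower, and moved the median of all regions from 0.03 to -0.67. All regions then had 4458 higher and 13878 lower.

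EH38D5698023 was higher in liver in both sub-libraries compared. In sub-library 4 its HepG2 libraries read -0.94, -0.77 and -1.71 and its liver libraries 1.66, 1.25, 1.17 and 1.05. The differences of sub-libraries 1 and 4 were 2.08 ± 0.60 (SE) and 2.54 ± 0.46 (edgeR adjusted p = 0.0231 and 0.000731). Its HepG2 means ran from -1.59 to -1.14 over sub-libraries 1, 2 and 4. Its conventional liver means ran from 0.31 to 1.28 over sub-libraries 1, 3 and 4. Germ-free means ran from 1.50 to 3.67 over sub-libraries 1 to 5. These ranges are uncentred and come from different sub-libraries. In sub-library 3 the libraries of conventional and germ-free liver overlapped (edgeR adjusted p = 0.169).

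EH38D2419694 was higher in liver in sub-libraries 4 and 5, at 1.29 ± 0.30 (SE) and 2.30 ± 0.55 (edgeR adjusted p = 0.0053 and 0.00885). Over sub-libraries its centred difference was 1.16 ± 0.85 (SD, n = 4, limma adjusted p = 0.00423), and without sub-library 5 it was 0.78 and not called (adjusted p = 0.133). EH38D5698027 was lower in liver in sub-library 1, at -0.98 ± 0.31 (SE, edgeR adjusted p = 0.0345), and over sub-libraries stood at -0.64 ± 0.62 (limma adjusted p = 0.0924), or at -0.79 and called without centring on controls (adjusted p = 0.036). Without sub-library 2 it was -0.81 and called (adjusted p = 0.0332).

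EH38D4580800 was lower in liver over sub-libraries, with centred differences of -0.75, -3.30, -1.76 and -0.61 in sub-libraries 1, 3, 4 and 5. They averaged -1.60 ± 1.24 (SD, limma adjusted p = 7.2e-05), a spread above that of 96.6% of regions. Here too the p-value uses the variance drawn towards all regions, not this SD alone. The mean was -1.004 without sub-library 3 (adjusted p = 0.0307), and without centring on controls it missed the threshold (-1.50, adjusted p = 0.0503). EH38D3158852 differed by -0.46 ± 0.79 (limma adjusted p = 0.301), EH38D5698024 by 0.07 ± 0.27 (0.879) and EH38D3158849 by -0.01 ± 0.42 (0.984). EH38D5698025 differed by 0.34 ± 0.47 and was not called either (limma adjusted p = 0.468). Of 7 members compared over sub-libraries 1 was higher and 1 lower, where 30.9% of 715 regions were called, 13.6% higher and 17.3% lower. Without sub-library 5, 1 of the 7 was called, and 189 of all 715 regions.

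The libraries titled Hep3B were compared with HepG2 in sub-library 2, where members had 11 to 379 counts in the single Hep3B DNA library. Of 17 members 1 was higher than in HepG2 and 3 lower, where 10.7% of 21622 regions were called, 5.09% higher and 5.6% lower. The libraries did not overlap in 15 of 17, with few libraries on each side and no count over all regions. The split was 2 and 3 with library sizes, which moved the median of all regions from 0.12 to 0.39, and 1 and 1 with the controls' factors. All 21622 regions split into 1817 and 841 with library sizes, and into 750 and 624 with the controls' factors.

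EH38D3158852 was the member higher in Hep3B. It read 6.11 and 5.39 on RNA counts of 11649 and 3806, against 2.60, 3.09 and 3.13 in HepG2, a difference of 2.82 ± 0.61 (SE, edgeR adjusted p = 0.0229). Its Hep3B DNA count was 17. EH38D4580801 read 1.77 and 1.62 against 0.23, 0.11 and 0.15, on a DNA count of 11, and was not called (1.54 ± 0.45, edgeR adjusted p = 0.0717), but was with library sizes (1.82, adjusted p = 0.0366). EH38D4595047 differed by 1.12 ± 0.45 and was not called (edgeR adjusted p = 0.173).

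The members lower in Hep3B were EH38D4580800, EH38D3775229 and EH38D3158849. EH38D4580800 read 0.31 and 0.51 against 2.15, 1.89 and 1.99 and differed by -1.63 ± 0.28 (SE, edgeR adjusted p = 0.0076). EH38D3775229 read -0.48 and -0.42 against 1.31, 0.85 and 0.76 and differed by -1.46 ± 0.32 (edgeR adjusted p = 0.023). EH38D3158849 read 0.08 and -0.09 against 1.07, 1.17 and 1.14 and differed by -1.16 ± 0.24 (edgeR adjusted p = 0.0194). Of the 4 calls, that of EH38D4580800 alone held with each replicate left out (adjusted p of at most 0.0299), and the count of calls was 1 without HepG2 replicate 2 and 2 without HepG2 replicate 3. Calls over all 21622 regions fell from 2311 to 1348 and 1688. Without replicate 2 the adjusted p was 0.0743 for EH38D3158852, 0.0691 for EH38D3775229 and 0.066 for EH38D3158849, and without replicate 3 it was 0.0563 for the first and 0.0532 for the last.

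The repeats can also be set against each other over the members. In HepG2 the correlation of the members' log2 ratios between a pair of sub-libraries had a median of 0.89 and ran from 0.83 to 0.96 over 10 pairs, on 11 to 16 members. The germ-free median was 0.80, from 0.57 to 0.91 over 10 pairs on 8 to 16 members. The conventional liver median was 0.58, from 0.16 to 0.88 over 6 pairs on 9 to 15 members. The negative controls of the same pairs had medians of 0.68, 0.69 and 0.60. Members of a sub-library share their libraries and depth, and these values are descriptive. The median SD over sub-libraries was 0.38 for HepG2 members and 0.36 for HepG2 negative controls. It was 0.61 and 0.48 for conventional liver, and 0.61 and 0.63 for germ-free liver.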

How the data were processed

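Reporter RNA and plasmid DNA were counted in each sub-library. The values are the authors' deposited counts per region, not normalized. The submitters' processing notes name BWA, DESeq2 1.42.1, edgeR 4.0.16 and hg38, without a role for each. Whether molecular identifiers were collapsed is not given in the sources used here.

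Each sub-library was fitted with edgeR 4.0.16 (R 4.3.3; TMM scaling, robust quasi-likelihood test), on regions whose DNA counts averaged at least 10. P-values were adjusted by Benjamini-Hochberg over all regions of all sub-libraries, with a threshold of 0.05. Differences between settings are interactions of RNA or DNA with setting. Means over sub-libraries were tested with limma 3.58.1 and its empirical Bayes variances. Scripts were tested on simulated data.

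Alternatives were plain library sizes, factors from the negative controls, DESeq2 1.42.0, other DNA minimums, prior count 0.5, other centring, and leaving out replicates and sub-libraries. Negative controls were recognised by the form of their names. Centring on all negative controls of each table was chosen after seeing the data.

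The members and lists were chosen with earlier results of these data known. Named members are the 6 highest and 4 lowest means of each result over sub-libraries, the 3 largest and 3 smallest SDs in each setting, the 3 largest differences of Hep3B in each direction, and members called in at least 3 sub-libraries in the same direction. Other members are named where a count of few calls needed it, chosen after their values were seen.

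Same-numbered RNA and DNA libraries did not deviate together: of 30 correlations of their deviations, 0 were over 0.1 (from -0.05 to 0.03).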

Additional observations from a re-analysis of the deposited data

Results flagged for a closer look

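Of 81 groups of 4 to 10 values examined, 3 held a value far from its group, where chance gives about 1 in 20. In conventional liver sub-library 4, RNA replicate 1 stood apart from the other 3 libraries for EH38D4580800, at -0.22, and for EH38D5698024, at 1.51. EH38D2419693 in HepG2 stood at 0.11 in sub-library 2 after centring, above its other 4 sub-libraries.

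Over sub-libraries, germ-free and conventional liver differed by the limma test for EH38D5698024 (1.92), EH38D5698027 (1.26), EH38D4595047 (1.19) and EH38D3158852 (-2.26), all log2 differences. Conventional liver and HepG2 differed for EH38D2419694 (1.16) and EH38D4580800 (-1.60).

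Within a single sub-library, the edgeR interaction called further differences between germ-free and conventional liver. They were -2.78 for EH38D2419694, -1.74 for EH38D2440001 and -2.59 for EH38D3158851 in sub-library 5, -1.82 for EH38D3158849 and 1.72 for EH38D5698023 in sub-library 4, and -1.61 for EH38D4580800 and -1.97 for EH38D5698026 in sub-library 1. EH38D5698023 differed between conventional liver and HepG2 by 2.54 in sub-library 4. Hep3B and HepG2 differed by 2.82 for EH38D3158852, -1.16 for EH38D3158849, -1.46 for EH38D3775229 and -1.63 for EH38D4580800.

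A pair of members was called in opposite directions in different sub-libraries of 1 setting. EH38D3158849 had fitted ratios of 1.76 in sub-library 1 and -2.02 in sub-library 5 of conventional liver. Its means there stood at the 99th and 3.22nd percentile of all negative controls. EH38D5698027 had 1.23 in sub-library 2 and -1.05 in sub-library 3 of germ-free liver. Centred on the controls its germ-free means there were 0.56 and -0.66, at the 92.9th and 32.3rd percentile of all negative controls, and the control medians used were 0.66 and -0.43.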

How the results depend on the processing

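Of the alternative values for counts of member calls and joint tests, 128 lay within 1.5 times the reported count and 26 did not. With library sizes, conventional liver had 34 calls, conventional liver against HepG2 11, and the germ-free joint test 2. Over all regions the calls were 48766 of 72336, 18336 of 65891 and 188 of 364. In Hep3B, calls of RNA against DNA numbered 2 with the controls' factors, 2 with DESeq2 and 1 of 6 with DNA counts of at least 50. All regions had 3353 and 6177 of 22605, and 3733 of 7130. Hep3B against HepG2 had 2 with the controls' factors and 2 of 6 with the higher DNA minimum, where all regions had 1374 of 21622 and 1507 of 7024. Restricted to regions with values in all 5 sub-libraries, calls were 1 of 2 in conventional liver, 2 of 7 in germ-free liver, 2 of 2 for germ-free against conventional liver and 0 of 2 for conventional liver against HepG2. All such regions had 46 of 150, 127 of 364, 30 of 69 and 45 of 136, in the same order.

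Leaving out 1 replicate gave 19 to 32 calls in germ-free liver, 3 to 8 for conventional liver against HepG2 and 1 to 4 for Hep3B against HepG2. All regions had 30134 to 45695, 10787 to 14610 and 1348 to 3039 calls, in the same order. Leaving out 1 sub-library gave 3 to 5 calls over sub-libraries in germ-free liver, 2 to 4 for germ-free against conventional liver and 1 to 3 for conventional liver against HepG2. All regions had 208 to 331 of 808, 70 to 96 of 322 and 155 to 240 of 715. Leaving out either, the joint test called 0 to 1 HepG2 members, 0 to 3 conventional liver members and 1 to 6 germ-free liver members. The cause was not tested.

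Some means that were not called changed sign. They were EH38D5698025 in conventional liver (-0.094 to 0.18 with a sub-library left out, below 0 without sub-library 1 or 5), EH38D3158852 in germ-free liver (-0.12 to 0.72, below 0 without sub-library 5), EH38D5698028 in germ-free liver (0.34 centred on all negative controls), and, for conventional liver against HepG2, EH38D5698024 (-0.070 without centring on controls) and EH38D3158849. The last was 0.085 without centring on controls, 0.027 with DNA counts of at least 50, -0.13 to 0.16 with a sub-library left out (above 0 without sub-library 2, 4 or 5), and 0.11 centred on all negative controls. It has no difference in sub-library 2, so leaving that one out moved only the zero.

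With the replicate block, calls were 21 in conventional liver, 33 in germ-free liver, 19 for germ-free against conventional liver and 5 for conventional liver against HepG2, and EH38D5698024 was called higher in 3 sub-libraries. Over all regions the calls were 33312 of 72336, 44762 of 86704, 20266 of 56240 and 11883 of 65891. The block uses the numbers of the sample titles, which a header reverses for a pair of germ-free RNA libraries of sub-library 3. Of the 30 same-numbered libraries, 12 correlated best with their own number.

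Hep3B member DNA counts had a median of 34, and that setting has 2 RNA libraries and 1 DNA library. Each HepG2 sub-library has 1 DNA library, so the spread of DNA measurements is not observed in that line.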
